A study of Mus musculus with 75 samples.

Results

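High-risk liver was compared between 10 and 5 months of age in 16 of the 75 liver libraries of the series. The libraries were taken by their labels: 6 libraries labelled as uninvolved liver of high-risk tributyltin mice at 10 months, and 10 libraries labelled high-risk tributyltin at 5 months. All were from male C57Bl/6 mice whose dams drank tributyltin (TBT), an organotin compound known as a ligand of the nuclear receptors RXR and PPARγ, with the water at 3.07 µM, a daily dose of 0.5 mg/kg, until the pups were weaned. Both age groups therefore share the early exposure, the strain, the sex and the risk label, and differ in age and in the label of uninvolved liver, which is given at 10 months only. The control groups used below carried either no TBT (vehicle liver of 3 weeks, 5 months and 10 months) or TBT with the low-risk label (5 and 10 months). How a 5-month liver was assigned to the high-risk group is not given in the sources used here.

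Sequencing batch is tied to age. All 10-month libraries were of sequencing batch 1, whereas of the 5-month libraries 3 were of batch 1 (numbers 4, 9 and 15) and 7 of batch 2 (numbers 1, 10, 12, 13, 17, 22 and 25). The comparison was therefore made with both batches and repeated within batch 1. Uninvolved libraries 3 and 6 differed by a mean chi-square of 3.21 per gene, against 23.4 for the next closest of 60 pairs within a group, and were summed into 1 sample (3+6), which left 5 uninvolved samples (1, 3+6, 5, 7 and 12). Library totals were 34.8 to 44.6 M (mega) counts in the uninvolved libraries and 7.79 to 45.4 M at 5 months. Among the 5-month libraries, number 10 had 39669 genes with a count and number 15 had 14.5% mitochondrial counts, and results were repeated without both. Labels do not say that numbers mark separate litters, so p-values measure the spread between these samples. Levels are counts per M counts of the library total (CPM). In bulk tissue, fewer cells of a type and less RNA per cell cannot be told apart.

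In an adult mouse liver most hepatocytes are out of the cell cycle, and genes of DNA synthesis and mitosis are high in the growing liver after birth and then decline. Male liver also acquires a sex-specific expression programme under pulsatile growth hormone, with cytochromes P450, major urinary proteins and transporters that are higher or lower than in females. Stellate cells hold vitamin A at rest and produce collagen when activated. The gene lists used here cover growth, sex-biased expression, the stroma and hepatocyte metabolism.

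With both batches, 295 of 15550 tested genes (1.9%) differed between ages at an adjusted p under 0.05 by edgeR's quasi-likelihood test. Of these, 108 (0.695% of those tested) were higher and 187 (1.2%) lower in the 10-month uninvolved liver. In 83 of the called genes, 34 higher and 49 lower, no uninvolved sample lay within the 5-month range, whereas 147 genes of all tested (0.945%) had no such overlap. A change of at least 2-fold was found for 61 of the higher and 93 of the lower genes. Within batch 1, with 5 samples against 3, only 7 of 18832 genes (0.0372%) passed, and 2261 had an unadjusted p under 0.05.

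The number of called genes depended on single samples and on how batch was treated. It was 77, 52, 34 and 85 without uninvolved sample 1, 5, 7 or 12, and 526 without 3+6. It was 105, 147, 111 and 169 without 5-month library 12, 13, 17 or 25, and 476, 635 and 527 without 15, 1 or 22. With sequencing batch as a covariate, 9 genes passed, all lower at 10 months. Of the 37 genes chosen by the naming rule, 1 (Nt5e) kept its call with that covariate, and for most of these genes the batch 1 value is therefore given beside that of both batches. Up to 12 genes each way were chosen by size only among called genes without overlap between ages. For these genes, the lack of overlap was a condition of choice and adds no evidence.

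**Figure D1:**
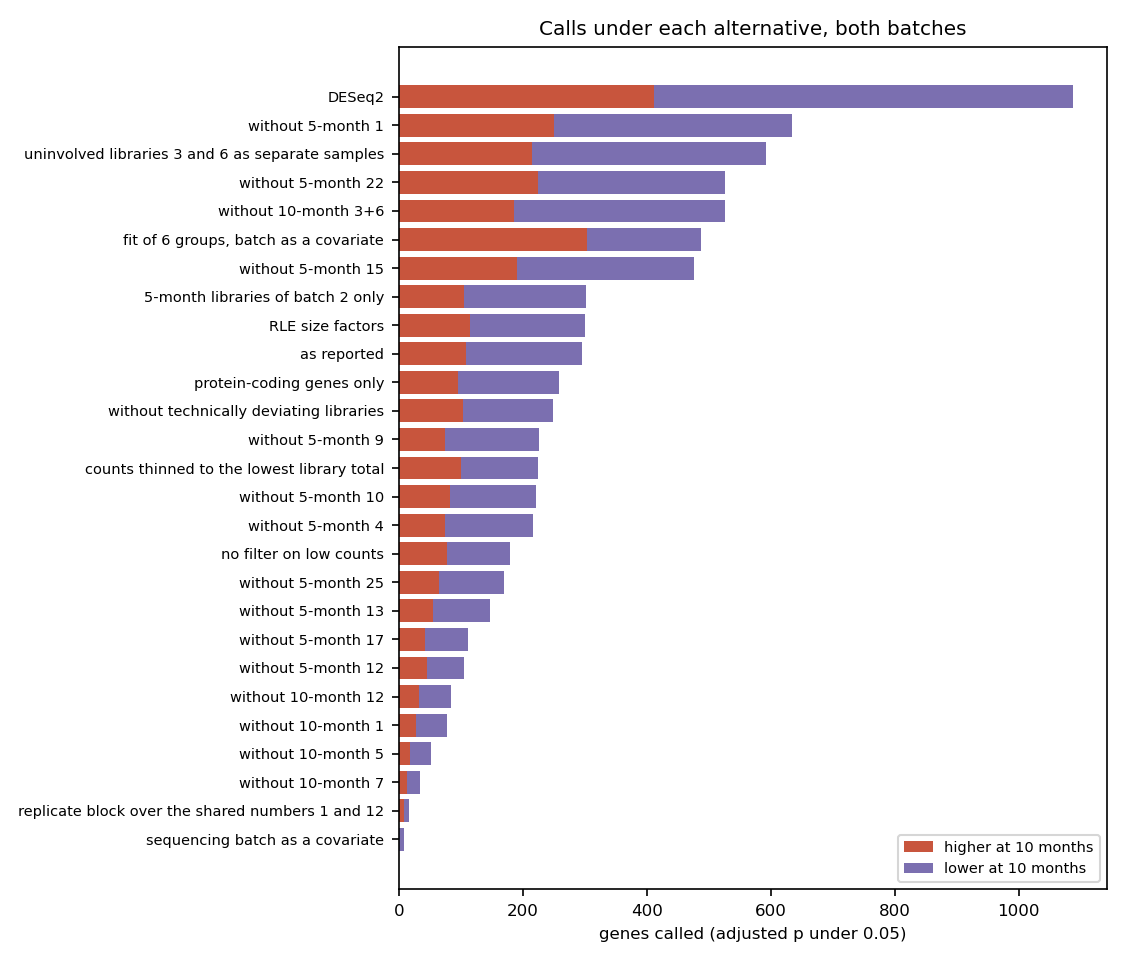
Number of genes called higher and lower in 10-month uninvolved than in 5-month high-risk liver (horizontal axis, genes with adjusted p under 0.05) under each setting of the both-batches comparison. The count runs from 9 with batch as a covariate to 1088 with DESeq2, against 295 in the comparison as reported.

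Of the lower genes chosen by size, those that fell most were an organic anion transporter, a fatty acid hydroxylase and a nucleotidase. Slc22a27, of the organic anion transporter family, was at 1.57, 1.19, 1.07, 0.662 and 0.795 CPM in uninvolved samples 1, 3+6, 5, 7 and 12, and between 2.78 and 66.9 CPM (median 11.4) at 5 months. No sample overlapped, but the 3 batch 1 libraries lay at 2.78 to 3.1 CPM, at the foot of the 5-month range. The log2 fold change was -4.16 (SE 0.91, adjusted p = 0.0351) with both batches and -1.46 (adjusted p = 0.181) within batch 1. Cyp4a31, of the cytochrome P450 family that hydroxylates the ends of fatty acids, was at 5.58, 3.08, 3.91, 6.96 and 2.36 CPM in the uninvolved samples against 10.6 to 70.6 CPM (median 33.7) at 5 months. Every uninvolved sample was below every 5-month library of either batch, as the naming rule required. Cyp4a31 had a log2 fold change of -2.98 (SE 0.42, adjusted p = 0.00579), and -2.18 (adjusted p = 0.0603) within batch 1.

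Nt5e encodes CD73, the surface enzyme that turns AMP into adenosine (chr9:88327197-88372092, mm10). Its level was 7.98, 6.09, 7.58, 6.90 and 5.04 CPM in the uninvolved samples. At 5 months it was 13.3 to 17.2 CPM in batch 1 and 36.9 to 62.0 CPM in batch 2. The uninvolved samples were thus below both batches, and the batches of 5 months did not overlap each other. The log2 fold change was -2.52 (SE 0.38, adjusted p = 0.00751) with both batches, -1.13 (SE 0.20, adjusted p = 0.0729) within batch 1 and -1.11 (adjusted p = 0.0254) with batch as a covariate. Nt5e kept its call in all 26 alternatives, the only named gene to do so.

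Slc1a4, a transporter of neutral amino acids, was at 8.68, 8.99, 7.01, 9.21 and 9.01 CPM in the uninvolved samples against 13.7 to 30.5 CPM (median 19.4) at 5 months. The uninvolved samples formed a narrow band (mean 8.58 ± 0.90, SD, n = 5), and fell by 1.25 on the log2 scale (SE 0.17, adjusted p = 0.00313). Within batch 1 the value was -0.96 (adjusted p = 0.138). Slc35g1, a member of a solute carrier family, lay at 15.8 to 23.8 CPM against 27.7 to 54.7 CPM (log2 fold change -0.99, SE 0.15, adjusted p = 0.00579). Slc30a4, a zinc transporter, lay at 9.32 to 22.6 CPM against 24.4 to 44.9 CPM (log2 fold change -0.88, adjusted p = 0.0160). Vbp1, a subunit of the prefoldin chaperone, lay at 5.21 to 10.6 CPM against 11 to 17.6 CPM (log2 fold change -0.88, adjusted p = 0.0122). Cebpb, a transcription factor of hepatocytes and macrophages, was at 21.8, 25.9, 24.4, 16.2 and 27.3 CPM against 28.1 to 99.6 CPM (median 43.1), a log2 fold change of -1.01 (adjusted p = 0.0424). The highest Cebpb value, 99.6 CPM, was that of 5-month library 15. These 4 genes were lower in every uninvolved sample, and within batch 1 their log2 values were -0.96, -1.03, -1.01 and -1.21 with adjusted p of 0.131, 0.187, 0.139 and 0.222. The call of Slc22a27 was lost without uninvolved sample 1, 5, 7 or 12 or 5-month library 12, 13, 17 or 25 (adjusted p 0.0506 to 0.118), and that of Cebpb without uninvolved 1, 5, 7 or 12 or 5-month 4, 12, 13 or 17 (0.0532 to 0.137).

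Genes of the stroma were also among the 12 lower genes chosen by size. Postn, which encodes the matricellular protein periostin, was at 8.37, 10.8, 7.06, 5.44 and 5.75 CPM in the uninvolved samples and 12.7 to 69.9 CPM (median 28.4) at 5 months. The 3 libraries of batch 1 were at 12.7 to 18.5 CPM, again the lower end. The log2 fold change was -2.11 (SE 0.35, adjusted p = 0.0120), and -1.05 (adjusted p = 0.194) within batch 1. Rgs5, a regulator of G-protein signals and a marker of pericytes, was at 65.6, 41.2, 54.4, 50.0 and 27.2 CPM against 69.4 to 124 CPM (median 94.5). Rgs5 had a log2 fold change of -1.0 (SE 0.17, adjusted p = 0.0120), and the batch 1 value was -0.92 (adjusted p = 0.161). Matn2, an extracellular matrix protein, was at 3.14 to 4.64 CPM against 5.32 to 12.1 CPM (log2 fold change -1.05, adjusted p = 0.0134, and 0.0537 without uninvolved sample 7). Postn, Rgs5 and Matn2 did not overlap between ages.

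Of the 18 tested genes of the list for stellate cells and fibrosis, 2 fell, 0 rose and 16 did not pass, and the list's median log2 fold change was -0.42 (-0.67 within batch 1), against -0.01 over all genes tested. Over all genes tested, 1.2% fell and 0.695% rose. Lox, which cross-links collagen, was at 1.5, 1.60, 1.37, 1.70 and 1.42 CPM in the uninvolved samples and at 1.63 to 11.3 CPM (median 5.91) at 5 months. Only 5-month libraries 1 and 22, at 1.63 and 1.65 CPM, reached the uninvolved range. The log2 fold change was -1.89 (SE 0.36, adjusted p = 0.0163), and -2.04 (adjusted p = 0.0603) within batch 1. Col1a2, a chain of type I collagen, was at 59.1, 73.8, 31.4, 29.1 and 49.4 CPM against 46.2 to 192 CPM (median 119), with overlapping groups. It passed narrowly (log2 fold change -1.22, SE 0.31, adjusted p = 0.0488). Col1a1 and Col3a1 did not pass, at -1.53 (adjusted p = 0.0800) and -1.41 (adjusted p = 0.0753). The resting stellate genes Lrat, Reln and Des were at -0.15, -0.17 and -0.12, with adjusted p of 0.767, 0.682 and 0.887. Lox lost its call without uninvolved sample 1, 5 or 7 (adjusted p 0.0540 to 0.0575), and Col1a2 without uninvolved 1, 5, 7 or 12 or 5-month 4, 9, 10, 12, 13, 17 or 25 (0.0553 to 0.150).

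The mitotic genes were lower at 10 months as a group. All 20 genes of the mitosis list had a log2 fold change below 0, with a median of -1.84 (-1.48 within batch 1), and all 20 had an unadjusted p under 0.05, as had 2863 of the 15550 genes tested. After adjustment over all genes, 2 of the 20 fell, 0 rose, and the other 18 had adjusted p of 0.0618 to 0.210. Over all genes tested, 1.2% fell. Levels within each age were widely spread. The list's summed level was 131, 213, 47.9, 31.5 and 47.4 CPM in uninvolved samples 1, 3+6, 5, 7 and 12, and 61.2 to 597 CPM (median 419) at 5 months. Uninvolved samples 1 and 3+6 were thus above the lowest 5-month library, number 1, and the other 3 were below all 5-month libraries.

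Mki67, the gene of the proliferation antigen Ki-67, was at 32.9, 39.8, 13.1, 8.92 and 7.43 CPM in the uninvolved samples. At 5 months it was at 15.2 to 147 CPM (median 114). Mki67 had a log2 fold change of -2.15 (SE 0.52, adjusted p = 0.0477), and -1.71 (adjusted p = 0.242) within batch 1, where the 5-month libraries were at 38.5, 55.9 and 110 CPM. Nusap1, a microtubule-binding protein of the spindle, was at 4.78, 5.16, 2.32, 1.67 and 2.0 CPM against 3.50 to 18.1 CPM (log2 fold change -1.75, SE 0.34, adjusted p = 0.0169). Both genes overlapped between ages through uninvolved samples 1 and 3+6. Spc25, a subunit of the NDC80 complex that ties kinetochores to microtubules, is not in the list but was named by size, which required separate ranges. It was at 5.61, 5.13, 4.04, 2.30 and 2.58 CPM against 8.30 to 23.8 CPM (median 14.9). Spc25 had a log2 fold change of -1.92 (SE 0.26, adjusted p = 0.00313), and -1.5 (adjusted p = 0.138) within batch 1. Mki67 lost its call without uninvolved 1, 5, 7 or 12 or 5-month 9, 10, 12, 13, 15, 17 or 25 (adjusted p 0.0531 to 0.142), and Nusap1 without uninvolved 5, 7 or 12 (0.0565 to 0.0629).

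Promoters of mitotic genes often hold CCAAT boxes, bound by NF-Y, and the element TTTGAA, known as the cell cycle genes homology region. The 250 bases before the start of Mki67 and Spc25 are shown because both genes fell and because their promoters differ in these letters. Sequences are from RefSeq (GRCm38.p6, the same build as mm10) in the direction of the gene, which is the minus strand for both. Capitals mark CCAAT or its complement ATTGG, and TTTGAA or its complement TTCAAA, motifs that share no letters with each other.
Mki67 (chr7:135716380-135716629): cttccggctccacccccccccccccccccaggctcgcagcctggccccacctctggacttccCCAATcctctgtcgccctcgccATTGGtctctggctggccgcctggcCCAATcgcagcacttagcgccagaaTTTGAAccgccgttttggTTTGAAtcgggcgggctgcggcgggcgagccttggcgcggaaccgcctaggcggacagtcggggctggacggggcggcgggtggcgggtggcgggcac
Spc25 (chr2:69206214-69206463): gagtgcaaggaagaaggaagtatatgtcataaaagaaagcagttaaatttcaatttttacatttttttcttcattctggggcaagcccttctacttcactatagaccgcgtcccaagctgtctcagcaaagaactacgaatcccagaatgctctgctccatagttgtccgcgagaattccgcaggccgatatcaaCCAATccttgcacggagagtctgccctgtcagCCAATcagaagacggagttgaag
The Mki67 window holds 3 CCAAT boxes and 2 TTTGAA elements, and the Spc25 window holds 2 CCAAT boxes and no TTTGAA. The window of Nusap1 (chr2:119618048-119618297) holds neither. Of the 17 mitosis genes with a promoter sequence, 15 (88.2%) held CCAAT and 8 (47.1%) held both motifs. Of the 11078 tested genes with one, 40.2% and 4.92% did. Among genes called lower, 64 of 145 (44.1%) held CCAAT, against 40.2% of all tested genes, and 16 (11%) held both motifs, against 4.92%. A match describes the letters and not binding.

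The DNA replication list shifted less, and less again within batch 1. Of 17 genes, 16 had a value below 0, 1 fell and 0 rose, with a median of -0.94 with both batches and -0.34 within batch 1. Over all genes tested, 1.2% fell. Rrm1, the large subunit of ribonucleotide reductase, was at 10.7 to 20.1 CPM in the uninvolved samples and 19.6 to 45.1 CPM at 5 months, with the 3 batch 1 libraries at 21.6 to 22.4 CPM. Its log2 fold change was -1.03 (SE 0.23, adjusted p = 0.0296), and -0.52 (adjusted p = 0.401) within batch 1. Pcna, the replication clamp, was at -0.63 (adjusted p = 0.118), and Mcm2 of the replicative helicase was at -1.07 (adjusted p = 0.0917). Rrm1 lost its call without uninvolved 1, 5, 7 or 12 or 5-month 12, 13 or 17 (adjusted p 0.0509 to 0.105).

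The medians of the male-biased and female-biased lists lay on opposite sides of 0, and of their genes only Cyp2b9 passed. All 16 tested male-biased genes were above 0, with a median of 0.94 (0.84 within batch 1), and 0 of them passed edgeR's test, whereas 5 had an unadjusted p under 0.05. Cyp2d9, a male-biased P450, was separated between ages at 537 to 697 CPM against 94.4 to 435 CPM (log2 fold change 1.06, adjusted p = 0.0697). Mup21, a major urinary protein, was at 54.7 to 190 CPM against 2.31 to 67.0 CPM (log2 fold change 2.38, adjusted p = 0.0878). All 10 tested female-biased genes were below 0, with a median of -1.77 (-0.61 within batch 1), and 1 of them, Cyp2b9, fell. Over all genes tested, 1.2% fell. Cyp2b9, a P450 of female and juvenile liver, had 1 to 6 counts in each uninvolved sample (0.0262 to 0.135 CPM). At 5 months it ran from 0 in library 22 through 0.477, 1.47, 3.85, 15.9, 17.9, 99.3, 104 and 109 CPM in libraries 15, 9, 25, 4, 12, 13, 10 and 17 to 151 CPM in library 1. The 5-month livers were thus far more diverse than the uninvolved ones, and no fold is given because the 10-month counts are so few (adjusted p = 0.0391, and 0.0603 within batch 1). Its call was lost without any 1 of the uninvolved samples (1, 3+6, 5, 7 and 12) or without 5-month 12, 13 or 17 (adjusted p 0.0540 to 0.120).

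Genes of fuel handling that fell included a thioesterase and a regulatory kinase. Acot1, a cytosolic acyl-CoA thioesterase, was at 8.43, 8.60, 5.83, 8.43 and 7.59 CPM in the uninvolved samples and 7.71 to 36.6 CPM (median 21.9) at 5 months, where only library 22 reached the uninvolved range. Its log2 fold change was -1.44 (SE 0.25, adjusted p = 0.0120), and -1.33 (adjusted p = 0.0663) within batch 1. Pdk4, the kinase that restrains pyruvate dehydrogenase, was at 18.5, 14.4, 18.3, 18.6 and 11.6 CPM against 13.3 to 66.4 CPM (log2 fold change -1.30, adjusted p = 0.0286). Both belong to the list of PPARα and fatty acid oxidation genes, in which 2 of 20 fell and 0 rose, against 1.2% and 0.695% of all genes tested. The list's median was -0.12, and it turned to 0.10 with batch as a covariate. Cpt1a, the gatekeeper of mitochondrial oxidation, was at -0.06 (adjusted p = 0.869).

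Psat1, of serine synthesis, was at 1.14, 4.58, 1.05, 0.978 and 1.32 CPM against 3.44 to 17.8 CPM (median 10.2), with sample 3+6 alone inside the 5-month range. Its log2 fold change was -2.43 (SE 0.47, adjusted p = 0.0177), and -2.54 (adjusted p = 0.181) within batch 1. It was the 1 gene of 15 in the integrated stress response list that passed, where 1.9% of all genes tested passed in either direction. Igfbp1, a secreted binder of insulin-like growth factors, was at 164, 153, 270, 62.7 and 187 CPM against 160 to 1253 CPM (median 571), a log2 fold change of -1.87 (SE 0.45, adjusted p = 0.0446). It was the 1 of 13 genes of the growth hormone and IGF1 list that passed. Cd24a, a surface glycoprotein of progenitor and tumor cells, was the 1 of 14 tested genes of the fetal and tumor-associated list that passed, at 8.08 to 14.6 CPM against 7.64 to 37.7 CPM (log2 fold change -1.08, adjusted p = 0.0424). Afp, the fetal serum protein, was at -0.71 (adjusted p = 0.496). Pdk4 and Psat1 lost their calls without uninvolved 1, 5, 7 or 12, and Pdk4 also without 5-month 12 (adjusted p 0.0531 to 0.0861). Igfbp1 lost its call without any 1 of the 5 uninvolved samples or 5-month 9, 10, 12, 13, 17 or 25 (0.0550 to 0.125), and Cd24a without any 1 of them or 5-month 4, 9, 10, 12, 13, 17 or 25 (0.0533 to 0.135).

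Among the genes that rose with age, several are made by hepatocytes. Serpina12, which encodes the serpin vaspin (chr12:104028769-104044443), was at 57.5, 50.2, 48.5, 31.1 and 56.4 CPM in the uninvolved samples and 2.51 to 23.7 CPM (median 9.94) at 5 months. The lowest uninvolved sample was above the highest 5-month library. Its log2 fold change was 2.26 (SE 0.40, adjusted p = 0.0144), and 1.80 (adjusted p = 0.145) within batch 1. Angptl8, a secreted protein that takes part in the inhibition of lipoprotein lipase, was at 18.8, 18.9, 32.8, 60.8 and 27 CPM against 5.24 to 17.6 CPM (median 11.1), with a log2 fold change of 1.51 (SE 0.27, adjusted p = 0.0143). The batch 1 value was 1.37 (adjusted p = 0.300). Sample 7 held the highest Angptl8 level, and without it the adjusted p was 0.0546. Mlxipl encodes ChREBP, the carbohydrate-responsive regulator of glycolysis and lipogenesis, and was the 1 of 16 genes of the lipogenesis list that rose (0.695% of all genes tested rose). It was at 172, 91.2, 164, 166 and 83.7 CPM against 27.7 to 90.0 CPM, with only sample 12 inside the 5-month range (log2 fold change 1.27, SE 0.25, adjusted p = 0.0177). Fasn and Scd1, enzymes downstream of it, were at 0.15 (adjusted p = 0.790) and 0.58 (adjusted p = 0.356). Mlxipl lost its call without uninvolved 1, 5 or 7 (adjusted p 0.0540 to 0.0737).

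Among other regulators of hepatocyte genes, the nuclear receptor gene Hnf4a was at 0.07 (adjusted p = 0.846), and Rxra, which encodes a receptor that TBT binds, was at -0.01 (adjusted p = 0.991).

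**Figure D2:**
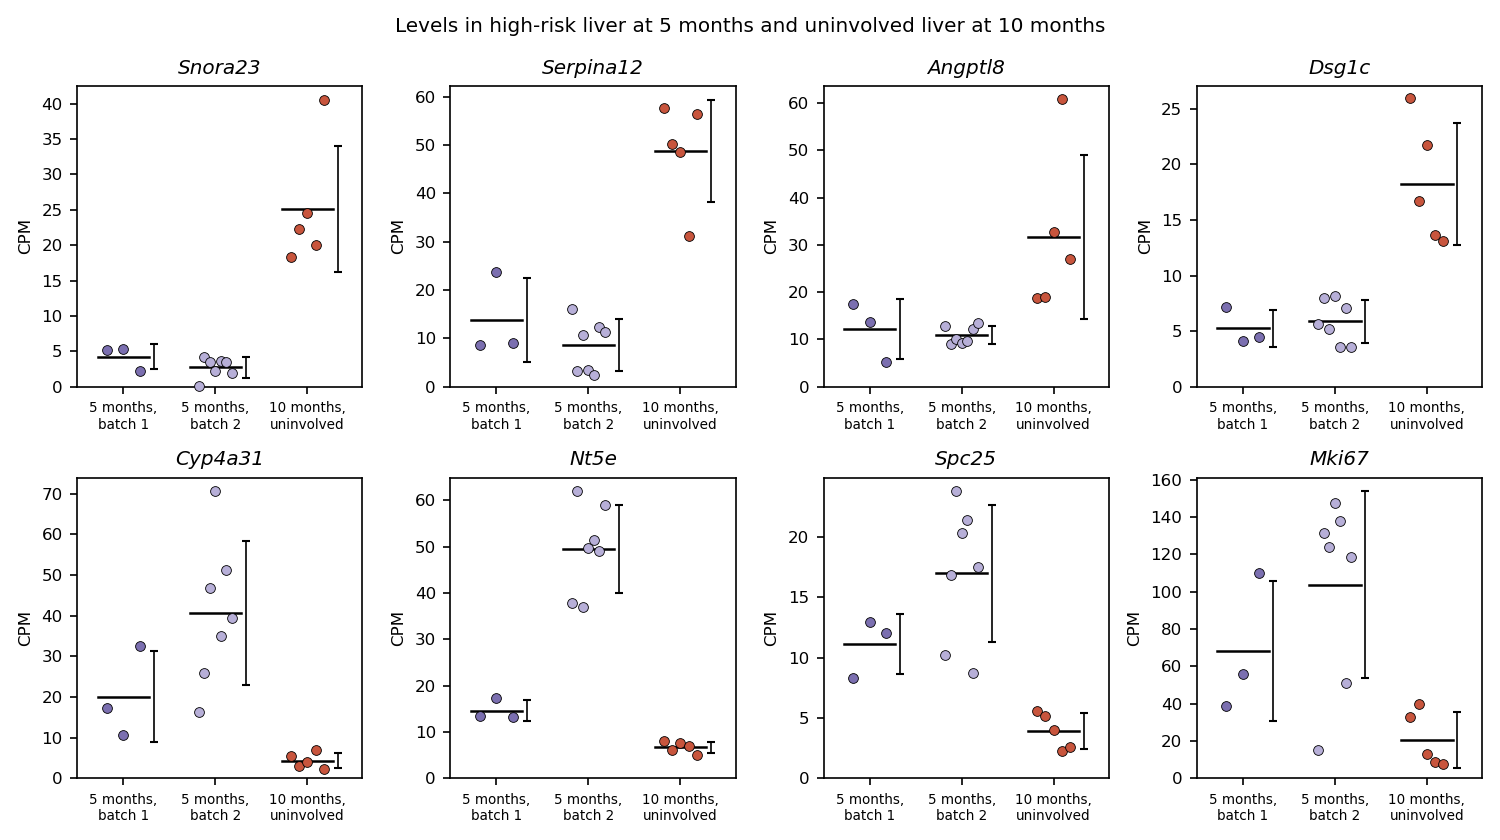
Level of 8 genes in each sample (vertical axis, CPM, linear and from 0) in 5-month high-risk liver of batch 1, of batch 2 and in 10-month uninvolved liver, with lines at the mean and bars of 1 SD. Snora23, Serpina12, Angptl8 and Dsg1c were higher and Cyp4a31, Nt5e and Spc25 lower in every uninvolved sample, whereas Mki67 overlapped through samples 1 and 3+6. For all but Mki67, the lack of overlap was a condition of naming.

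Dsg1c, a desmosomal cadherin, was at 25.9, 16.7, 21.7, 13.7 and 13.1 CPM against 3.54 to 8.15 CPM (median 5.42), with a log2 fold change of 1.67 (SE 0.22, adjusted p = 0.00313) and 1.81 (adjusted p = 0.0603) within batch 1. Adgrf1, an adhesion G-protein-coupled receptor, was at 10.6, 7.70, 17.1, 8.17 and 29.4 CPM against 2.90 to 6.95 CPM (log2 fold change 1.48, adjusted p = 0.0223). Cyp2u1, a fatty acid hydroxylase, was at 50.2, 53.6, 50.1, 55.9 and 84.9 CPM against 17 to 44.4 CPM (log2 fold change 1.02, adjusted p = 0.0431). Its 3 batch 1 libraries, at 37.2 to 42.1 CPM, were near the top of the 5-month range, and the batch 1 value was 0.61 (adjusted p = 0.375). Vwce, Naa80 (the acetyltransferase of actin) and Tns2 (a tensin of focal adhesions) rose by 0.86, 0.76 and 0.76 on the log2 scale, with adjusted p of 0.0160, 0.0177 and 0.0314. Their uninvolved ranges were 20.9 to 34.8, 24.6 to 32.7 and 75.8 to 116 CPM, against 9.76 to 19.97, 9.38 to 24.2 and 34.3 to 75.4 CPM at 5 months. Naa80 lies within the span of Hyal3 and Hyal1 on the same strand, so reads may be shared. Calls were lost without uninvolved 5 or 12 for Adgrf1 and Naa80 (adjusted p 0.0571 to 0.0788), without uninvolved 7 for Vwce (0.0638), without uninvolved 1, 5, 7 or 12 or 5-month 9, 10, 12, 13, 17 or 25 for Cyp2u1 (0.0520 to 0.130), and without uninvolved 1, 5, 7 or 12 or 5-month 12 or 13 for Tns2 (0.0515 to 0.104).

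The largest increase of all named genes was in a small nucleolar RNA. Snora23 is an H/ACA RNA of the class that guides the conversion of uridine to pseudouridine, and Rnu12 is the U12 RNA of the minor spliceosome. Their sequences are from the GENCODE M21 annotation of GRCm38. They are shown because they gave the largest increases of the named genes and are far shorter than a messenger RNA. Capitals mark the ACA box of Snora23 and a candidate H box, the match to ANANNA nearest the middle of the RNA. Other matches to that pattern are not marked, and none were searched in Rnu12.
Snora23 (chr7:110046364-110046547, plus strand): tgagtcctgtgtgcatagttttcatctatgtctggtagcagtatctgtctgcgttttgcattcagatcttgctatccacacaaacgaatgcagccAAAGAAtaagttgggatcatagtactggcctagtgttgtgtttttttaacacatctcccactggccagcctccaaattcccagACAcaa
Rnu12 (chr15:83149644-83149794, plus strand): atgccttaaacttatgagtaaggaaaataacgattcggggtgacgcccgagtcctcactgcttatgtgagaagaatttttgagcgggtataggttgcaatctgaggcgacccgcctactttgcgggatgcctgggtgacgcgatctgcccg
Snora23 is 184 bases long and lies inside Ipo7, on the same strand, and opposite 1600010M07Rik. Rnu12 is 151 bases long and overlaps no other annotated gene.

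Snora23 was at 18.3, 22.3, 24.5, 20.1 and 40.5 CPM in the uninvolved samples and at 0.0815 to 5.39 CPM (median 3.50) at 5 months. The lowest uninvolved sample was above the highest 5-month library, and batch 1 of 5 months was at 2.22 to 5.39 CPM. The log2 fold change was 3.02 (SE 0.40, adjusted p = 0.00313), and 2.58 (adjusted p = 0.0617) within batch 1. Rnu12 was at 12.9, 9.86, 10.4, 11 and 15.7 CPM against 0.163 to 9.01 CPM (median 0.840), with a log2 fold change of 2.54 (SE 0.59, adjusted p = 0.0407). Within batch 1 it was 0.636 to 1.67 CPM at 5 months, and the log2 fold change was 3.35 (SE 0.38, adjusted p = 0.0288), one of the 7 calls there. Rn7sk, the 7SK RNA that holds the elongation factor P-TEFb inactive, was at 9040 to 17755 CPM against 2852 to 8484 CPM (log2 fold change 1.19, adjusted p = 0.0190). The mitochondrial cysteine tRNA, mt-Tc, was at 41.1 to 81.1 CPM against 3.50 to 29.7 CPM (log2 fold change 1.97, adjusted p = 0.0300). Neither overlapped between ages. Of the 16 tested mitochondrial tRNAs, mt-Tc was the 1 called, 7 were above 0 and the median was -0.38 (5 of 17 above 0 and -1.05 within batch 1). Calls were lost without uninvolved 12 for Rn7sk (adjusted p 0.0686), without uninvolved 1, 5, 7 or 12 or 5-month 4, 9, 13, 17 or 25 for Rnu12 (0.0575 to 0.105), and without uninvolved 1, 5, 7 or 12 or 5-month 12, 13 or 17 for mt-Tc (0.0515 to 0.0814).

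Of the 11 tested genes of the list of nuclear-retained and small RNAs, 3 rose, 0 fell and 9 were above 0, with a median of 1.05 (0.97 within batch 1). Over all genes tested, 0.695% rose and 7656 of 15550 were above 0. The share of counts on snoRNA genes was 0.0315% to 0.0523% in the uninvolved libraries against 0.00803% to 0.0274% at 5 months, without overlap. In 5-month low-risk liver the share ran from 0.00772% to 0.0390%, overlapping the uninvolved range. In the other 10-month groups it was 0.0157% to 0.0203% (low-risk), 0.0183% to 0.0224% (vehicle) and 0.0176% to 0.0239% (tumor). The uninvolved libraries also had higher totals than these 3 groups (34.8 to 44.6 M against 22.5 to 33.5 M), 24676 to 28715 genes with a count against 21078 to 23868, and 4.20% to 5.85% mitochondrial counts against 2.64% to 3.83%. The single 10-month library labelled as a tumor of a vehicle mouse, not used in any comparison, had 11.5 M counts, 19863 genes with a count, 14.1% mitochondrial and 0.00580% snoRNA counts. The part of library properties in the small-RNA values was not tested. After all libraries were thinned to 7.79 M counts, a setting chosen after seeing the data, 225 genes passed in place of 295.

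Over all 36 lists, 9 medians were above 0 and 27 below, and 11 lists held a called gene. No list member was called in the other 25. The 2 medians farthest below 0 in lists of at least 10 genes were those of mitosis (-1.84) and of female-biased genes (-1.77), and the 2 highest were those of nuclear-retained and small RNAs (1.05) and male-biased genes (0.94). Bile acid synthesis and transport had 14 of 16 genes above 0 (median 0.35) and cholesterol synthesis 6 of 20 (median -0.09, and 0.05 within batch 1), with 0 called in either by edgeR and 3 and 0 at an unadjusted p under 0.05. Resident Kupffer cell genes had 1 of 12 above 0 (median -0.32), endothelial genes 9 of 16 (median 0.02), and genes of p53 and senescence 2 of 14 (median -0.36), again with 0 called and 4, 4 and 6 at an unadjusted p under 0.05.

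**Figure D3:**
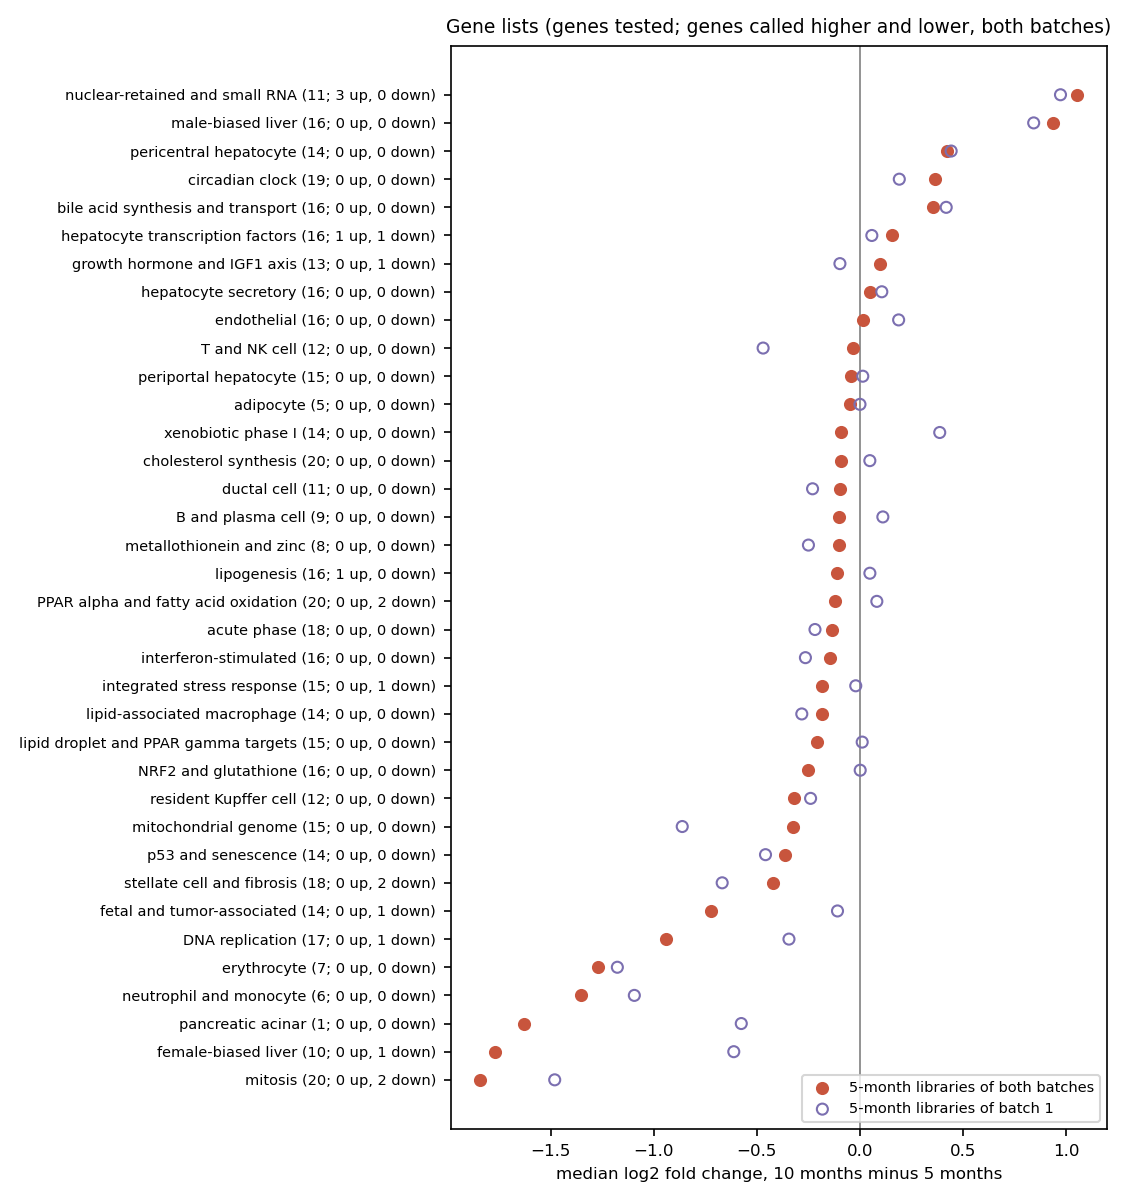
Median log2 fold change of each gene list (horizontal axis, 10-month uninvolved minus 5-month high-risk liver) with both batches and within batch 1. The mitosis list lies at -1.84 and -1.48 and the nuclear-retained and small RNA list at 1.05 and 0.97, whereas the female-biased list moves from -1.77 to -0.61 when batch 2 is left out.

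All 5 hepatocyte markers were detected in every uninvolved sample, and those of other cell types overlapped between ages. Over the 11 cell types, 0 markers were called by edgeR's test, and 0 were at 0 in every library. Summed hepatocyte markers were at 73401 to 95298 CPM in the uninvolved samples and 67857 to 156345 CPM at 5 months, and Kupffer cell markers at 137 to 271 against 132 to 391 CPM. Stellate markers were at 419 to 627 against 369 to 787 CPM, endothelial markers at 218 to 275 against 163 to 310 CPM, and duct markers at 10.7 to 24.4 against 3.17 to 38.6 CPM. Neutrophil markers reached 2.6 CPM in the uninvolved samples and 33.7 CPM at 5 months, and erythrocyte markers 179 and 557 CPM. The ranges of these marker sums overlapped. In the longer neutrophil and monocyte list, all 6 tested genes were below 0 (median -1.35, and -1.09 within batch 1), with 0 called by edgeR and 5 at an unadjusted p under 0.05. That list summed to 14.5 to 29.9 CPM in the uninvolved samples and 29.2 to 74.5 CPM at 5 months, overlapping only through uninvolved sample 1. The pancreatic acinar list summed to 370 CPM in 5-month library 1, against a 5-month median of 6.21 CPM and 4.75 to 25.5 CPM in the uninvolved samples. The part of cell composition in the gene values was not tested.

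Within batch 1, the 7 calls were Acot2, Vmn2r3, Slit2 and Gdf10, which were lower at 10 months, and Rnu12, Cyp2c37 and Gm4756, which were higher. Acot2, a mitochondrial acyl-CoA thioesterase, was at 5.70, 7.26, 2.39, 3.42 and 3.23 CPM in the uninvolved samples and at 53.6, 24.8 and 32.6 CPM in 5-month libraries 4, 9 and 15. Its log2 fold change was -3.05 (SE 0.37, adjusted p = 0.0288), and -2.43 (adjusted p = 0.0120) with both batches. Cyp2c37, a P450 of the arachidonic acid epoxygenase group, was at 19.4 to 28.3 CPM against 6.44 to 7.79 CPM in batch 1 (log2 fold change 1.77, adjusted p = 0.0288). With both batches, its value was -0.46 (adjusted p = 0.837), so the sign of its fold change depended on the libraries used. The 5-month libraries of both batches had a median of 8.46 CPM, below every uninvolved sample, and the highest was at 212 CPM. Slit2, an axon guidance ligand, and Gdf10, a TGF-β family ligand, had log2 fold changes of -2.73 and -1.44 (adjusted p = 0.0496 for both), and -1.91 and -0.92 (adjusted p of 0.0584 and 0.0672) with both batches. Without 5-month library 4, 0 genes passed edgeR's test in batch 1, where 2435 genes had p below 0.05 before adjustment. There were 4, 4, 2 and 1 calls without uninvolved 1, 5, 7 or 12, and 12 and 13 without 5-month library 9 or 15.

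Whether the age difference of high-risk liver differed from that of other livers was tested as an interaction in a fit of all 5- and 10-month groups, with batch as a covariate. Against vehicle liver, 62 of 17572 genes (0.353%) passed, 16 with a more positive and 46 with a more negative age difference in high-risk liver. Against low-risk liver, 62 of 17572 (0.353%) passed, 34 more positive and 28 more negative. In the same fit, 1264 genes (7.19%) differed between 10 and 5 months in vehicle liver. In low-risk liver 0 of 17572 passed edgeR's test between these ages, and 1668 had p below 0.05 before adjustment. Both interactions share the high-risk libraries.

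Snora23 passed in both interactions: its age difference was 3.26 ± 0.48 (log2, SE) in high-risk, 0.01 ± 0.46 in vehicle and -0.87 ± 0.50 in low-risk liver. The interactions were 3.25 (adjusted p = 0.0163) and 4.13 (adjusted p = 0.000639), and 2.64 (adjusted p = 0.00205) and 3.02 (adjusted p = 0.000269) with batch 1 libraries only. The uninvolved libraries also stood apart from the other 10-month groups in total and composition, and the part of these properties in the Snora23 values was not tested. Nt5e fell by 1.98 ± 0.39 in high-risk liver in that fit and was at 0.58 ± 0.33 in low-risk liver, an interaction of -2.57 (adjusted p = 0.00384, and 0.249 with batch 1 only). Spc25 had age differences of -1.74 ± 0.36 in high-risk and 0.29 ± 0.31 in vehicle liver, an interaction of -2.03 (adjusted p = 0.0338). Angptl8 was at 1.56 ± 0.36 against -0.57 ± 0.34 in low-risk liver (2.14, adjusted p = 0.0227), Cyp4a31 at -2.98 ± 0.53 against -0.46 ± 0.45 (-2.53, adjusted p = 0.0416) and Acot2 at -3.04 ± 0.61 against -0.05 ± 0.52 (-3.00, adjusted p = 0.0416). Adgrf1 differed from vehicle liver by 2.71 (adjusted p = 0.0479), and Mup21 from low-risk liver by 2.88 (adjusted p = 0.0429). With batch 1 only, Snora23 was the only one of the 11 interaction genes that passed. The 5 samples left out in turn ended the calls of Adgrf1 (without each of uninvolved 1, 3+6, 5, 7 and 12, adjusted p 0.0541 to 0.127), of Spc25 (without 1, 7 or 12, 0.0509 to 0.0659) and of Snora23 against vehicle liver (without 12, 0.0534). Calls against low-risk liver were lost without uninvolved 7 or low-risk 2, 4, 8 or 10 for Angptl8 (0.0602 to 0.0817), without each sample left out for Cyp4a31 (uninvolved 1, 3+6, 5, 7 and 12 and low-risk 2, 4, 8, 9 and 10, 0.0602 to 0.109), without uninvolved 1, 5, 7 or 12 or low-risk 2, 4, 9 or 10 for Acot2 (0.0519 to 0.116), and without these uninvolved samples or any 1 of the 5 low-risk libraries for Mup21 (0.0731 to 0.119).

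Col5a2, Rhoq and Smc4 passed against vehicle liver. Col5a2, a chain of type V collagen, was at 53.5 to 152 CPM in the uninvolved samples and 32.0 to 106 CPM at 5 months, and its interaction of 3.51 (SE 0.73, adjusted p = 0.0222) arose with an age difference of -2.80 ± 0.53 in vehicle liver and 0.71 ± 0.53 in high-risk liver. In vehicle liver of 5 months Col5a2 ran from 2.64 to 77.9 CPM (median 5.76), and at 10 months from 1.58 to 3.64 CPM (median 2.99). With batch 1 libraries only, its interaction was 3.69 (adjusted p = 0.175). Rhoq, a small GTPase, was at -0.81 ± 0.19 in high-risk and 0.45 ± 0.16 in vehicle liver (-1.26, adjusted p = 0.0151). Smc4, a condensin subunit, was at -1.15 ± 0.21 and 0.01 ± 0.19 (-1.16, adjusted p = 0.0418), and -0.87 (adjusted p = 0.102) without the libraries of unusual composition (5-month high-risk 10 and 15, low-risk 16 and vehicle 9). Smc4 also lost its call without uninvolved 3+6, 7 or 12 (adjusted p 0.0541 to 0.0950). The number of calls against vehicle liver was 18, 22, 16 and 13 without uninvolved 1, 3+6, 7 or 12. Against low-risk liver it was 35, 16, 15 and 21 without uninvolved 1, 5, 7 or 12, and 11, 5, 20, 16 and 8 without low-risk 2, 4, 8, 9 or 10.

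**Figure D4:**
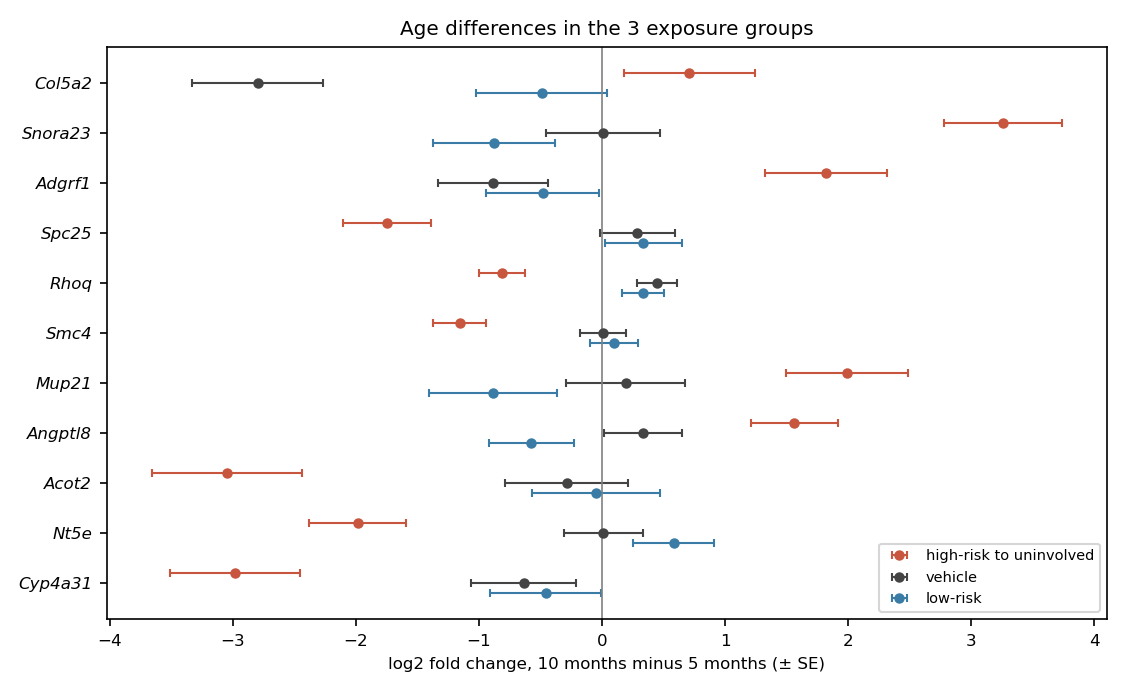
Age difference (horizontal axis, log2, 10 minus 5 months, bars of 1 SE) of the 11 genes named in the interactions, in high-risk, vehicle and low-risk liver. Snora23 lies at 3.26 in high-risk liver and at 0.01 and -0.87 in vehicle and low-risk liver, and Nt5e at -1.98, 0.01 and 0.58.

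Some named genes also differed with age in vehicle liver. In the same fit of all 6 groups, Dsg1c rose with age in vehicle liver by 1.16 (adjusted p = 0.0215), Psat1 fell by 1.77 (adjusted p = 0.0149), Lox by 1.93 (adjusted p = 0.0104), Col1a2 by 1.09 (adjusted p = 0.0253) and Cd24a by 1.13 (adjusted p = 0.0423). Tns2, which rose in high-risk liver, fell by 0.64 in vehicle liver (adjusted p = 0.0386). The mitosis list had a median of -1.44 in vehicle and -0.81 in low-risk liver, against -1.49 in high-risk liver in that fit. The median of the nuclear-retained and small RNA list was 0.01 in vehicle and -0.37 in low-risk liver, and that of the stellate list was -1.05 and -0.35.

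The genes lower at 10 months were set beside the difference between 3 weeks and 5 months in vehicle liver, which uses none of the high-risk libraries, an analysis chosen after values were seen. In vehicle liver of batch 1, with 7 samples of each age, 1383 of 13927 genes (9.93%) were higher and 1244 (8.93%) lower at 3 weeks than at 5 months. Of the 187 genes lower in uninvolved than in 5-month high-risk liver, 182 were tested there and 96 (52.7%) were higher at 3 weeks, against 9.79% of all 13751 genes tested in both fits. These 96 are 6.94% of the genes higher at 3 weeks. Of the 108 genes higher in uninvolved liver, 104 were tested there, 16 (15.4%) were lower and 1 (0.962%) was higher at 3 weeks. Among the 12 lower genes chosen for size, 10 were higher at 3 weeks, all but Cebpb and Slc30a4. Serpina12, Cyp2u1 and Tns2 were the 3 of the 12 higher genes that were lower at 3 weeks.

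The levels of Nt5e and Slc22a27 in the other groups are given for comparison. Nt5e was at 50.9 to 77.0 CPM in 3-week vehicle liver, 3.38 to 18.1 CPM in 5-month vehicle liver, 13.3 to 62.0 CPM in 5-month high-risk liver and 5.04 to 7.98 CPM in the uninvolved libraries, beside 5.55 to 11.1 CPM in 10-month vehicle liver. Slc22a27 was at 32.8 to 56.1 CPM at 3 weeks and at most 3.39 CPM in 5-month vehicle liver, with 5-month high-risk liver between 2.78 and 66.9 CPM.

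Some genes differed in level from 10-month control liver. The mitosis list summed to 31.5 to 215 CPM over the 6 uninvolved libraries, against 10.2 to 34.4 CPM in 10-month vehicle and 12.3 to 26.1 CPM in 10-month low-risk liver, with the lowest uninvolved library inside the vehicle range, while tumors were at 26.6 to 338 CPM. Mki67 was at 7.43 to 40.5 CPM in the uninvolved libraries, above the 1.45 to 7.19 CPM of vehicle and the 2.25 to 5.6 CPM of low-risk liver. Col1a2 was at 29.1 to 74.1 CPM against 8.13 to 13.5 CPM in vehicle and 10.1 to 19.1 CPM in low-risk liver. Serpina12 was at 31.1 to 57.5 CPM against 55.0 to 168 CPM in vehicle and 113 to 144 CPM in low-risk liver, so uninvolved liver overlapped only the lower end of the vehicle range. Snora23 was at 18.3 to 40.5 CPM in uninvolved liver and at 1.57 to 3.29 CPM in the other non-tumor groups of 10 months. In the 10-month tumors of exposed mice it was at 2.26 to 3.16 CPM. In 5-month low-risk liver it ran up to 18.3 CPM.

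**Figure D5:**
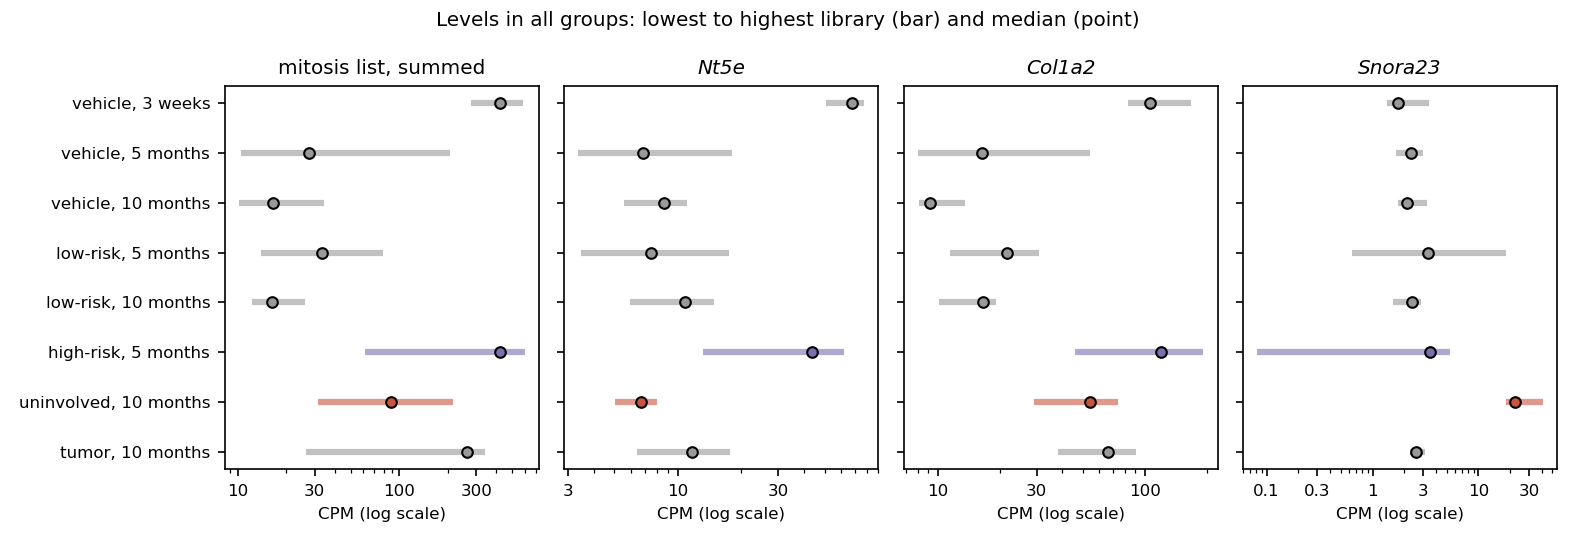
Level of the summed mitosis list, Nt5e, Col1a2 and Snora23 (horizontal axis, CPM on a log scale) in 8 groups of the series (vertical axis), with bars from the lowest to the highest library and points at the median. Uninvolved liver is shown as its 6 libraries. Nt5e of uninvolved liver (5.04 to 7.98 CPM) overlaps that of 10-month vehicle liver (5.55 to 11.1 CPM), whereas Col1a2 and Snora23 of uninvolved liver lie above every vehicle and low-risk library of 10 months.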

How the data were processed

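Liver RNA of 75 libraries was measured by stranded total RNA sequencing, per the labels' protocols. Trim Galore, HISAT2 and featureCounts on mm10 are named in the submitters' processing notes, and the file name records a ComBat-seq batch adjustment. Values are whole-number counts per gene, as deposited by the authors. Versions, the strand setting and the groups given to ComBat-seq are not given in the sources used here. The adjustment is meant to reduce batch differences, but unadjusted counts were not compared here. An adjustment that used groups can alter differences between them, so p-values are conditional on it. Of 55536 gene identifiers, 55450 matched GENCODE M21.

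Counts were tested with edgeR 4.0.16 (R 4.3.3, limma 3.58.1) by the quasi-likelihood F test after filterByExpr and TMM scaling, with Benjamini-Hochberg adjustment over all tested genes and a threshold of 0.05. SE is the log2 fold change divided by the square root of F. Libraries were grouped by their labels. Up to 12 genes each way were named by the size of the log2 fold change among those with adjusted p under 0.05, a mean of at least 5 CPM in the comparison, no overlap between ages and the same sign in batch 1, leaving out predicted genes and pseudogenes. Up to 2 further genes came from each list with a call, and 3 each way from each interaction. A few results on single genes are not reported here. The comparison, its libraries, the lists and the rule were chosen with earlier results of these data known. Alternatives were DESeq2 1.42.0, other scaling, filters, covariates and samples, and the thinned counts and the left-out samples of the interactions were chosen after seeing the data. On simulated data made from 15177 genes of the both-batches comparison, 55 of 100 genes changed by 2-fold and 90 of 100 changed by 4-fold were recovered, with 5 false calls among 150. The recovered numbers at 2-fold and 4-fold were 16 and 62 of 100 for batch 1. They were 26 and 68 for the interaction with vehicle liver, and 37 and 60 for that with low-risk liver. The simulated counts held no difference between batches, so their false calls do not cover one.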

Additional observations from a re-analysis of the deposited data

Results flagged for a closer look

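A single sample stood apart from the rest of its group in 6 of 74 sets of values, where chance gives about 1 in 20 if sets are independent. These sets share the same samples, so that rate is only a rough guide. Uninvolved sample 12 was highest for Snora23 (40.5 CPM) and Cyp2u1 (84.9 CPM). Uninvolved sample 5 was lowest for Slc1a4 (7.01 CPM), and uninvolved sample 3+6 was highest for Psat1 (4.58 CPM). At 5 months, library 12 was highest for Rnu12 (9.01 CPM) and library 15, which had 14.5% mitochondrial counts, for Cebpb (99.6 CPM).

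The age difference of high-risk liver differed from that of vehicle liver for 62 genes and from that of low-risk liver for 62, by the interaction test, with 21 genes in both. Given here are the 3 genes each way with the largest differences among those eligible for naming. Against vehicle liver these (log2) were 3.51 for Col5a2, 3.25 for Snora23, 2.71 for Adgrf1, -2.03 for Spc25, -1.26 for Rhoq and -1.16 for Smc4. Against low-risk liver they were 4.13 for Snora23, 2.88 for Mup21, 2.14 for Angptl8, -3.00 for Acot2, -2.57 for Nt5e and -2.53 for Cyp4a31.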

How the results depend on the processing

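For both batches, the 295 called genes became 179 with no filter on low counts, 1088 with DESeq2 (411 higher, 677 lower), 592 with uninvolved libraries 3 and 6 as separate samples, 487 in the fit of all 6 groups (303 higher, 184 lower) and 9 with batch as a covariate (0 higher, 9 lower). Leaving out 1 sample gave 34 (without uninvolved 7) to 635 (without 5-month 1), including 526 without 3+6. Within batch 1, the 7 calls became 36, 510, 41 and 100 under the first 4 of these settings, 13 without the libraries of unusual composition, 11 with thinned counts and 0 to 13 with 1 sample left out. Against vehicle liver, the 62 interaction calls became 113 with RLE scaling, 5 with batch 1 only, 1 with no filter, 132 without the unusual libraries, 142 with 3 and 6 separate and 471 with DESeq2. They were 13 to 60 with 1 uninvolved sample left out, including 22 without 3+6. Against low-risk liver, the 62 calls became 96, 3, 10, 204, 106 and 359 under the same 6 settings. They were 5 to 35 with 1 single uninvolved or 10-month low-risk library left out, and 51 without 3+6. Vehicle and 5-month libraries were not left out in turn in either interaction, so the dependence of these calls on them was not tested. Where counts changed, the cause was not tested. The both-batches count stayed within 1.5 times with RLE scaling (301), coding genes only (259), batch 2 libraries only at 5 months (302), no unusual libraries (248) and thinned counts (225). Of these calls, 282, 230, 193, 194 and 179 were among the 295, so a similar count did not mean the same genes. With batch 2 libraries only at 5 months, age and batch coincide and cannot be told apart. None of the 37 genes chosen by the naming rule changed sign under any alternative. That was nearly fixed in advance, because the rule required a call and, for genes chosen by size, the same sign in batch 1. The alternatives also reuse most of the same libraries. Of the 37 genes, 1 kept its call with batch as a covariate and 4 with the replicate block. Numbers 1 and 12 occur in both ages, but same-numbered samples did not deviate together (correlations of -0.203 and 0.00191), and the replicate block over these 4 libraries gave 17 calls. Totals down to 7.79 M counts limit what could be detected in low genes.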

Other observations

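Gene families outside the lists were looked at after values were seen, and are given as values only. For comparison, 0.695% of all 15550 tested genes were called higher and 1.2% lower, and 7656 were above 0. All 11 tested Cyp2d genes, a family of drug- and steroid-metabolising P450s, were above 0, and 3 rose: the pseudogenes Cyp2d36-ps, Cyp2d38-ps and Cyp2d37-ps, at log2 fold changes of 2.67, 2.08 and 1.91. Reads of these may be shared with near-identical copies. The family summed to 2120 to 2486 CPM in the uninvolved samples and 1072 to 1870 CPM at 5 months, without overlap. Of 23 major urinary protein genes, 20 were above 0 and 0 were called by edgeR's test (median 0.72, and 1.41 within batch 1).

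Of 46 tested clustered histone genes, 3 fell: Hist1h3c, Hist1h4j and Hist1h4k, at -2.13, -2.04 and -1.70. The family's median was -1.12 with both batches and -0.32 within batch 1. Of 74 tested small RNA genes, 64 were above 0 and 8 rose, with a median of 0.87. Of these, 33 were snoRNA genes, with 27 above 0 and 6 called higher (median 0.99).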
